A study of Mus musculus with 8 samples.

Results

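The enzymes that make asparagine, make and break down proline, and move nitrogen through glutamate were followed in mouse hearts with and without a knockdown of tafazzin. The 9 genes, chosen by name with earlier results of these data known, were Asns, Aldh18a1, Pycr1, Oat, Prodh, Got1, Gpt2, Glud1 and Glul. They were matched by gene symbol or synonym to the 25697 probes of an Illumina mouse bead array, which gave 11 probes for 8 of the 9 genes. Pycr1 was matched by none of the named probes and its transcript was not analysed here. Detection, a p-value under 0.05 against the negative controls of the array, on at least 4 of the 8 arrays was required for a test, and 9 probes of 7 genes met it. The 2 probes just outside were one of Asns (ILMN_2636755) and the only one of Glul, each detected on 0 of 8 arrays, and the 2 just inside were the other probes of Asns, each detected on 4.

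Each of the 8 arrays was hybridised with heart RNA from a different 2-month-old mouse. Of the mice, 4 were wild-type littermates and 4 carried a transgenic short hairpin RNA against Taz, the gene of tafazzin, induced by doxycycline. Tafazzin remodels the acyl chains of cardiolipin, a phospholipid typical of mitochondria, and its loss in people causes Barth syndrome. Every mouse was on the C57BL/6J background and was fed doxycycline at 625 mg/kg of diet, the controls included. The labels state neither the promoter that drives the hairpin nor the sex of the mice.

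Glutamate stands at the centre of these pathways. Aldh18a1 turns it in the mitochondrion into pyrroline-5-carboxylate, from which Pycr1 makes proline, while Oat reaches the same intermediate from ornithine and Prodh returns proline to it. Got1 and Gpt2 pass the amino group of glutamate to make aspartate and alanine, Glud1 releases it as ammonia, Glul binds ammonia to form glutamine, and Asns uses aspartate and glutamine to make asparagine. Asns is a well-known target of ATF4, the transcription factor of the amino acid response, which binds composite elements together with C/EBP family proteins.

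The promoters of the 4 enzymes that rose are shown because this composite element is the best known control site of Asns. The sequences are those of RefSeq (GRCm38.p6), run from 250 bases before the start of the gene to 50 after it, and are given 5′ to 3′ on the strand of the gene. They lie at chr6:7693160-7693459 for Asns, chr19:43524556-43524855 for Got1, chr19:40588414-40588713 for Aldh18a1 (all on the minus strand) and chr8:85492326-85492625 for Gpt2 (plus strand). Capitals mark a match to TGATGNAAN on either strand.
Asns: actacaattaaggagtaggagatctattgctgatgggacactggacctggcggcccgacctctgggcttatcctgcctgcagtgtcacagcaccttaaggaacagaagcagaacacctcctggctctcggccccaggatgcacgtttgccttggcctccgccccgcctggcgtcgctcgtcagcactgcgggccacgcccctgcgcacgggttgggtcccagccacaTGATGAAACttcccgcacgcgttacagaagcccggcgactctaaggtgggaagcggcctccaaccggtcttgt
Got1: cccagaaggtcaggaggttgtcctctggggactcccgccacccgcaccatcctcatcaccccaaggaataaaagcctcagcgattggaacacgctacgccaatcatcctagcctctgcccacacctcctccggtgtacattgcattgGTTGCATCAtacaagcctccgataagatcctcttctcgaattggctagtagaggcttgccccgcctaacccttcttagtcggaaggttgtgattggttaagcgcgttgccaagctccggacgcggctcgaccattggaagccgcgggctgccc
Aldh18a1: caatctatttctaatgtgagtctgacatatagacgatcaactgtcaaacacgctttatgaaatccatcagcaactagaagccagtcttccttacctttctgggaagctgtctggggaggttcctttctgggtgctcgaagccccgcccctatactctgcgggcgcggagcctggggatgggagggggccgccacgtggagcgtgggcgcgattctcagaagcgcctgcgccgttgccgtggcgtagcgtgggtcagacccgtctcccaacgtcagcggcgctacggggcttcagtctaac
Gpt2: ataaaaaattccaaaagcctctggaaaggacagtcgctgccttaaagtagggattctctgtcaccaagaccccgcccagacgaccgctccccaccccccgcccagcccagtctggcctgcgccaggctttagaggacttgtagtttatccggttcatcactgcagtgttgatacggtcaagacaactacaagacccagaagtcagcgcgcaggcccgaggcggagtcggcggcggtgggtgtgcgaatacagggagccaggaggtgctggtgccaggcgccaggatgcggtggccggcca
The Asns promoter held TGATGAAAC at position -23 from the start, the letters known from the human gene as its nutrient-sensing response element, and these letters were found in 0.247% of the 32851 promoters of the table. The Got1 promoter held the element on the opposite strand, as GTTGCATCA on the strand of the gene, at -103. The promoter of Pycr1, whose transcript was not measured, held TGATGCAAT at -103. TGATGNAAN, which includes the other forms searched (TGATGNAAT and TGATGAAAC), occurred in 3 of the 9 promoters of these genes and in 3.95% of all promoters. TGATGNAAT alone occurred in 0.965% of all promoters. In the windows of Aldh18a1 and Gpt2, as in those of Oat, Prodh, Glud1 and Glul, the letters of TGATGNAAN were not found, and TGACGTCA, the cyclic AMP response element, was found in 0 of the 9 against 1.79% of all promoters. A match of letters is a description and does not show that a factor binds there. The shares are descriptions too, as genes and motifs were chosen with earlier results of these data known.

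The hairpin had lowered its target. The brighter Taz probe (ILMN_2978525) gave deposited signals of 477 to 639 in wild-type hearts and 53.3 to 69.9 in knockdown hearts. The number of probes detected on an array was 8935 to 9601 in wild-type and 9027 to 10183 in knockdown hearts. Ventricular muscle markers were bright in both groups, with a summed normalized intensity of 130005 to 145837 in wild-type and 130680 to 139579 in knockdown hearts over the 6 of 8 listed that were tested. Of 6 leukocyte markers listed, 3 had a probe (Ptprc, Cd3e and Itgam), and these were detected on 0 arrays. All 4 liver markers had a probe and 0 were tested. Alb and Apoa1 were detected on 0 arrays, while Ttr and Serpina1a were detected on some arrays but too few for a test. As whole hearts were used, fewer cells of a type and less RNA per cell cannot be told apart.

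Expression of 4 of the 7 tested genes was higher in the knockdown hearts (Asns, Aldh18a1, Gpt2 and Got1), 0 fell, and Oat, Prodh and Glud1 did not pass. The test was limma on normalized log2 intensities of all 9397 tested probes, with a Benjamini-Hochberg adjusted p under 0.05 as threshold. Of all tested probes, 6.58% passed (3.42% higher and 3.16% lower). With 1 probe per gene, the brightest tested one, 6.65% of 6889 genes passed, of which 3.22% were higher and 3.43% lower as shares of all genes. Asns met the detection filter only through its high group and so had to differ. Of the other 6 genes 3 rose. As the genes were chosen with earlier results of these data known, their counts beside all genes are descriptions. The median log2 difference of the 7 genes, Asns included, was 0.60, beside -0.01 for all tested genes. As it holds Asns, this median is a description too. Singly, the other 6 gave 2.39 (Aldh18a1), 0.84 (Gpt2), 0.60 (Got1), -0.02 (Prodh), -0.07 (Glud1) and -0.24 (Oat). In the same 4 genes every knockdown heart lay above every wild-type heart, which held for 6.91% of all tested genes. For Asns this is a description, as it had to differ to be tested. In the other 3 genes the groups overlapped.

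**Figure D1:**
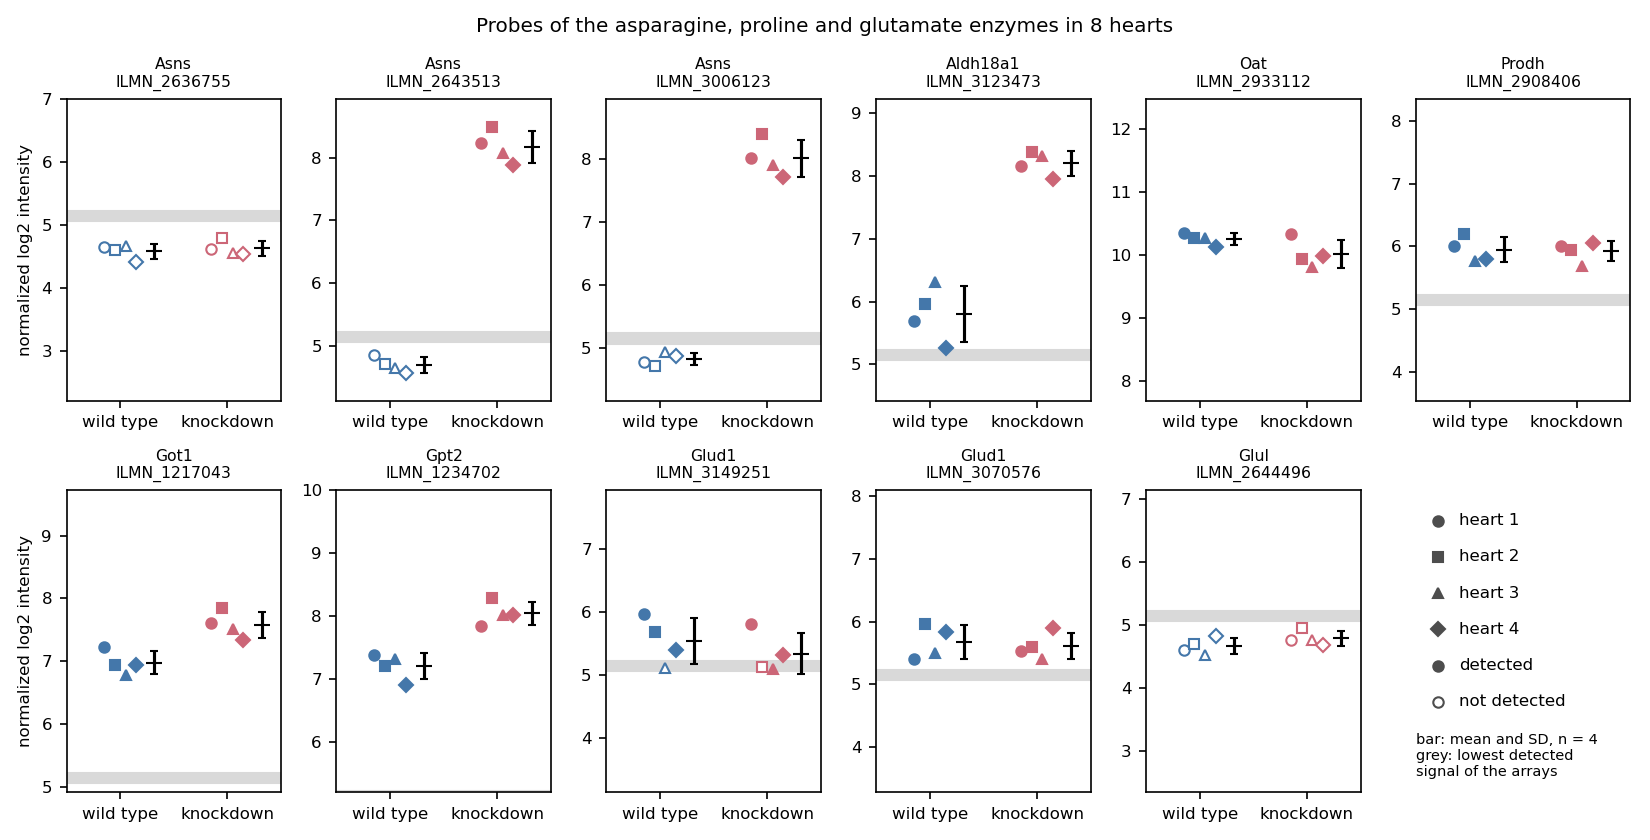
Normalized log2 intensity (vertical axis) of the 11 probes of 8 enzymes in 4 wild-type hearts (blue) and 4 Taz knockdown hearts (red), each panel spanning the same number of log2 units, with the mean and SD beside the points, open symbols for values that were not detected and a grey band for the lowest detected signals of the arrays. Knockdown hearts stand above wild-type hearts for ILMN_2643513 and ILMN_3006123 of Asns and for Aldh18a1, Got1 and Gpt2, and the groups overlap in the other 6 panels.

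Asns, which makes asparagine, had the largest difference of the set. Its brighter probe (ILMN_2643513) gave deposited signals of 8.58, 3.48, 0.553 and -3.13 in wild-type hearts 1 to 4 and of 347, 351, 248 and 185 in knockdown hearts 1 to 4. The signal was thus at background in every wild-type heart and clear of it in every knockdown heart, lowest in knockdown heart 4. Since no wild-type heart reached detection, the difference is a bound. By that probe Asns expression in knockdown hearts was at least 8.01-fold higher, at least 7.18-fold higher by the other tested probe (ILMN_3006123), whose signals were 3.40 to 11.2 in wild-type and 161 to 331 in knockdown hearts. The limma adjusted p was 1.05e-07 and 1.86e-07. As both probes met the detection filter only through the knockdown hearts, these p-values are a description. Both probes put the knockdown hearts in the same order, with heart 2 highest and heart 4 lowest. Of all 9397 tested probes, they ranked 5 and 7 by the size of the increase, a rank that rests on wild-type values at background. The third Asns probe (ILMN_2636755) stayed between -14.7 and 6.98 over all 8 hearts, with a lowest detection p of 0.284, and did not register the increase. Probe sequences were not used here, so where each lies in the transcript was not examined.

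Aldh18a1, which makes pyrroline-5-carboxylate from glutamate, was detected in all 8 hearts. Its probe gave 38.7, 49.6, 50.04 and 22.5 in wild-type hearts 1 to 4 and 329, 324, 299 and 193 in knockdown hearts 1 to 4. The lowest knockdown heart, again heart 4, was well above the highest wild-type heart, and the wild-type hearts varied among themselves (SD 0.44 on the log2 scale, n = 4) more than the knockdown hearts (SD 0.20, n = 4). Aldh18a1 rose 5.25-fold (95% interval 3.88 to 7.10, limma adjusted p = 3.34e-05), the 15th largest increase of all tested probes. Its log2 difference of 2.39 was 1.85 to 2.82 over the alternatives other than omission of 1 heart.

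The enzymes that take proline and ornithine through the same intermediate did not rise with Aldh18a1. Prodh, the first enzyme of proline breakdown, gave 52.9, 60.5, 31.8 and 41.7 in wild-type hearts 1 to 4 and 62.0, 46.0, 35.1 and 42.7 in knockdown hearts 1 to 4. These ranges lay almost on top of each other. The log2 difference of Prodh was -0.02 with a 95% interval of -0.31 to 0.26 (limma adjusted p = 0.951). Oat, ornithine aminotransferase, gave 1358, 1312, 1004 and 1109.8 in wild-type hearts and 1504, 1005, 862 and 843 in knockdown hearts, where heart 1 stood above all others of either group. On the normalized scale, which evens out the brightness of the arrays, this heart fell within the wild-type range at 10.32. The log2 difference of Oat was -0.24 with an interval of -0.51 to 0.04 (limma adjusted p = 0.320). The smallest differences these arrays could resolve are limited by the 4 hearts per group, and the intervals leave room for changes within their bounds.

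Of the 3 transaminases among the 9, Gpt2 and Got1 rose while Oat, described above, did not pass. Gpt2, the mitochondrial alanine transaminase, gave 162, 139, 114 and 108 in wild-type hearts 1 to 4 and 262, 303, 241 and 203 in knockdown hearts 1 to 4. Every knockdown heart was above every wild-type heart, and the increase was 1.79-fold (95% interval 1.46 to 2.20, limma adjusted p = 0.00397). Got1, the cytosolic aspartate transaminase and part of the malate-aspartate shuttle, gave 144, 112, 74.4 and 110.3 in wild-type hearts 1 to 4 and 223, 221, 166 and 122 in knockdown hearts 1 to 4. On the deposited scale wild-type heart 1 exceeded knockdown heart 4, whose array was the dimmest of its group; after normalization the groups did not overlap, the closest values being 7.23 and 7.35. Got1 rose 1.52-fold (95% interval 1.24 to 1.87, limma adjusted p = 0.0232). That call is close to the threshold: it was lost when any 1 of 5 hearts was left out (wild-type hearts 2, 3 and 4 and knockdown hearts 1 and 2), with log2 differences of 0.52 to 0.69 over the 8 omissions and adjusted p of 0.0159 to 0.0659.

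Glud1, glutamate dehydrogenase, and Glul, glutamine synthetase, were the dim members. The brighter Glud1 probe (ILMN_3070576) gave 27.7, 49.4, 25.1 and 42.9 in wild-type hearts and 37.5, 32.5, 25.3 and 37.2 in knockdown hearts. The knockdown values lay inside the wild-type range, and the log2 difference was -0.07 with a 95% interval of -0.40 to 0.27 (limma adjusted p = 0.852). The other Glud1 probe (ILMN_3149251), detected on 6 of 8 arrays, gave -0.20 (-0.64 to 0.24, limma adjusted p = 0.641). The Glul probe ranged from -7.90 to 12.6 over the 8 hearts with a lowest detection p of 0.134. It was below detection throughout and gives no measure of Glul in either group.

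**Figure D2:**
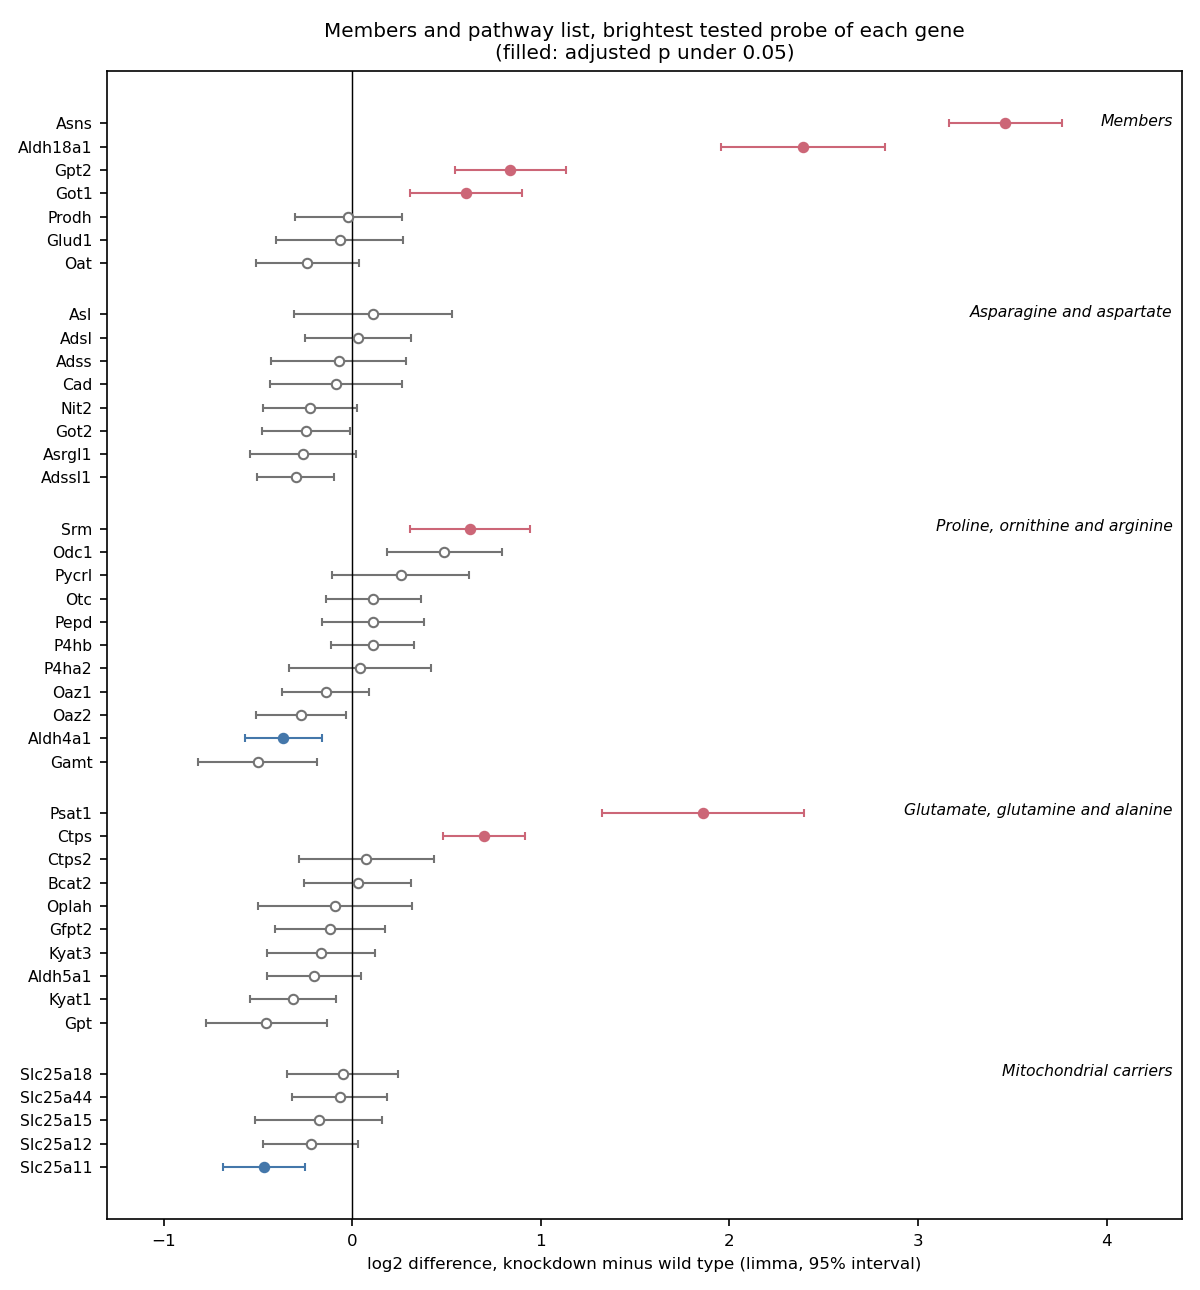
Log2 difference between knockdown and wild-type hearts (horizontal axis, with the 95% interval of limma) for the 7 tested enzymes and the 34 tested genes of the surrounding pathways, 1 probe per gene. Filled points passed an adjusted p of 0.05; Asns (3.46) and Aldh18a1 (2.39) lie beyond every gene of the surrounding pathways, of which Psat1 (1.86) comes nearest. The point of Asns rests on background values in wild-type hearts, and Psat1 was detected in 1 of 4 wild-type hearts.

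The rise of Asns, Aldh18a1, Gpt2 and Got1 was set against a partner enzyme, one that breaks down the amino acid made or does the same step in the other compartment. For each pair the log2 intensity of one was subtracted from the other within each heart, and the groups were compared by an exact two-sided permutation test over 70 assignments of the hearts, whose smallest p is 0.0286. Of the 7 pairs listed, 5 had tested probes for both enzymes, and p was adjusted over these 5. Aldh18a1 rose against Prodh by 2.41 on the log2 scale: the difference was -0.33, -0.23, 0.54 and -0.54 in wild-type hearts 1 to 4 and 2.14, 2.43, 2.63 and 1.88 in knockdown hearts 1 to 4. Got1 rose against Got2, the mitochondrial aspartate transaminase, by 0.85, with -6.58, -6.66, -6.83 and -6.56 in wild-type and -5.87, -5.60, -5.81 and -5.95 in knockdown hearts. Gpt2 rose against Gpt, the cytosolic alanine transaminase, by 1.29, with 0.27, -0.14, -0.23 and -0.28 in wild-type and 0.89, 1.35, 1.02 and 1.54 in knockdown hearts. In each of these pairs the lowest knockdown heart stood above the highest wild-type heart. Asns rose against Asrgl1, an asparaginase, by 3.73, or by 3.18 when values without detection were set no lower than the dimmest detected probe on that array; the Asrgl1 probe was detected in 4 of 4 wild-type and 2 of 4 knockdown hearts. As Asns had to differ to be tested, its pair is a description. In the other 3 of these pairs the groups did not overlap (exact permutation p = 0.0286 for each, adjusted p = 0.0357 over 5 pairs and 0.0381 over the 4 without Asns). Aldh18a1, Got1 and Gpt2 had each separated the groups singly, and the pairs were chosen with earlier results of these data known. The p-values of these 3 pairs are therefore no independent support. Oat against Glud1 moved by -0.17, with overlapping groups (exact permutation p = 0.514, unchanged by either adjustment). Within an array such a ratio shows unequal change of the enzymes and does not say which level is higher. Singly, the partners Got2 (-0.24, limma adjusted p = 0.213), Gpt (-0.46, 0.0954) and Asrgl1 (-0.26, 0.276) did not pass.

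**Figure D3:**
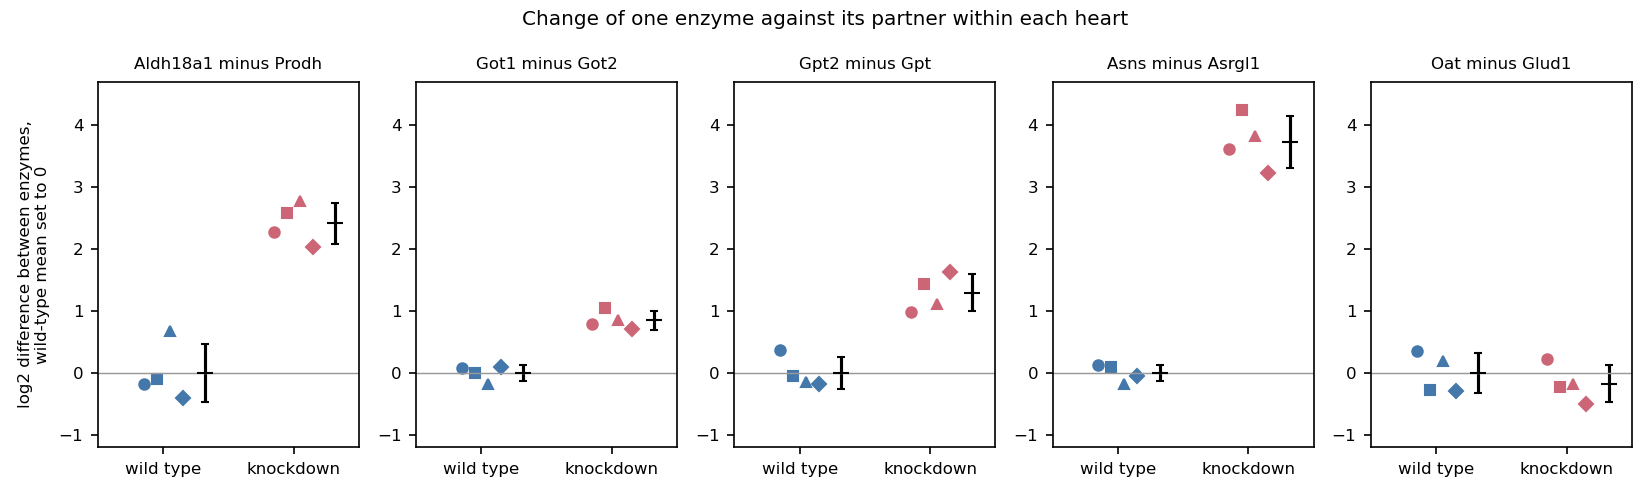
Log2 difference between paired enzymes within each heart (vertical axis, the wild-type mean of each pair set to 0), with wild-type hearts in blue, knockdown hearts in red and the mean and SD of 4 hearts beside them. The groups are apart for Aldh18a1 against Prodh, Got1 against Got2, Gpt2 against Gpt and Asns against Asrgl1, and overlap for Oat against Glud1.

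Other enzymes and carriers that feed or use the same amino acids were taken as a second list. Of 61 listed, 55 had a probe and 34 were tested. Of these, 3 rose (8.82%, against 3.22% of all tested genes), 2 fell (5.88%, against 3.43%) and 29 did not pass, with a median of -0.09. These shares are descriptions, as the list was chosen with earlier results of these data known. The genes that rose were Psat1, Ctps and Srm, and those that fell were Slc25a11 and Aldh4a1. Psat1, which takes the amino group of glutamate in serine synthesis, gave 14.5, 21.5, 2.37 and 9.76 in wild-type hearts 1 to 4 and 99.9, 188, 90.7 and 52.9 in knockdown hearts 1 to 4. Knockdown heart 2 was highest and heart 4 lowest, as for Asns. Psat1 rose 3.63-fold (95% interval 2.51 to 5.27, limma adjusted p = 0.00111), and its log2 difference was 1.86, or 1.63 with undetected values raised, since it was detected in 1 of 4 wild-type hearts. Its 4 knockdown hearts alone met the detection filter, as for Asns, so its fold, interval and p-value are a description. Over the alternatives other than omission of 1 heart its log2 difference ran from 1.19 to 2.51. Without Psat1, 2 of 33 genes rose. Ctps, a CTP synthase that uses glutamine nitrogen, rose 1.62-fold (1.40 to 1.88, limma adjusted p = 0.00168) and its other probes gave 0.57 (adjusted p = 0.00524) and 0.51 (adjusted p = 0.0562) on the log2 scale. Srm, spermidine synthase, rose 1.54-fold (1.24 to 1.92, limma adjusted p = 0.0272), with 0.62 (adjusted p = 0.0127) and 0.64 (adjusted p = 0.0775) on the log2 scale by its other probes. The Srm call was lost without wild-type heart 1, 2 or 3 or knockdown heart 1, with adjusted p of 0.0280 to 0.0710 over the 8 omissions, and with the dimmest wild-type and knockdown arrays both left out (adjusted p = 0.0723).

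The 2 decreases, of Aldh4a1 and Slc25a11, did not hold in every omission of a heart. Aldh4a1, which carries proline breakdown from pyrroline-5-carboxylate on to glutamate, gave 2097, 2112, 1662 and 2012 in wild-type hearts and 1730.5, 1715, 1519 and 1294 in knockdown hearts. It fell by 0.37 on the log2 scale (95% interval -0.57 to -0.16, limma adjusted p = 0.0407), and the call was lost without any 1 of the 8 hearts. Slc25a11, the carrier that exchanges oxoglutarate for malate across the inner mitochondrial membrane, fell by 0.47 (-0.69 to -0.25, limma adjusted p = 0.0175) by its brightest probe, while its other probes gave -0.14 and -0.12 and did not pass. The call of Slc25a11 was lost without wild-type heart 3 or knockdown hearts 1 or 2. In 8 of the 34 genes all knockdown values were under all wild-type values (23.5%, against 8.36% of all tested genes), and in 4 all were above (11.8%, against 6.91%). Those 4 include Psat1, whose knockdown hearts alone met the detection filter.

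The counts by group stand beside the 3.22% of all tested genes that were higher and the 3.43% that were lower. By group, 0 of 8 asparagine and aspartate genes passed in either direction (median -0.15), with 6 negative values. Of 11 genes of proline, ornithine and arginine metabolism Srm rose, Aldh4a1 fell and 9 did not pass (median 0.11). Among those 9 were Pycrl, a cytosolic relative of Pycr1 (0.26, 95% interval -0.11 to 0.62, limma adjusted p = 0.428), and Odc1, which makes putrescine from ornithine (0.49, 0.18 to 0.79, limma adjusted p = 0.0636), while Gamt, which makes creatine from guanidinoacetate, had -0.50 (-0.82 to -0.18, limma adjusted p = 0.0647); these are named after their values were seen. Of 10 genes of glutamate, glutamine and alanine Psat1 and Ctps rose and 8 did not pass (median -0.10). The list of mitochondrial carriers held those of glutamate, aspartate and ornithine together with Slc25a11 and Slc25a44. All 5 tested had negative values (median -0.18), although Slc25a18 turned to 0.000963 with undetected values raised, and 1, Slc25a11, passed.

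Across the 8 hearts, the genes whose level was most like that of Asns were Mthfd2, Slc7a5, Sars, Atf5 and Slc7a3, with Pearson correlations of 0.998, 0.997, 0.996, 0.994 and 0.992 among 6882 genes compared. Mthfd2 is a mitochondrial folate enzyme, Slc7a5 and Slc7a3 import amino acids, Sars charges serine to its tRNA and Atf5 is a transcription factor. These correlations mostly carry the gap between the groups. With each group's mean removed, the closest 5 were Cp, Pon2, Mgat4b, Rcan2 and Smo (0.943 to 0.986 over 8 hearts), and 0 of these passed the comparison of the groups. Among the members, deviations from the group mean of Asns followed those of Got1 (0.90) more than those of Gpt2 (0.58) or Aldh18a1 (0.35). Asns was detected in 0 of the 4 wild-type hearts, so its deviations there are those of background signal. The closest 5 are also the extremes among 6882 genes. All these correlations are descriptions over 8 arrays that share their brightness and normalization.

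Among the tested markers of other heart cells, only Acta2 passed the comparison of the groups. All 5 tested atrial markers of 6 listed had negative values (median -0.71), 0 passed, and their summed intensity was 34641 to 62998 in wild-type and 29811 to 41298 in knockdown hearts. In a fit that also held the Myl7 level of each heart (an atrial myosin light chain, -0.71, limma adjusted p = 0.0526), Asns (3.39, limma adjusted p = 5.94e-05) and Aldh18a1 (1.85, adjusted p = 0.00580) still passed, while Gpt2 (0.61, adjusted p = 0.245) and Got1 (0.62, adjusted p = 0.280) did not; Myl7 itself tracked the groups, and over all probes this fit called 73 higher and 26 lower. Of 5 tested smooth muscle and pericyte markers Acta2 rose by 0.85 (limma adjusted p = 0.0125) and 4 did not pass, among them Tagln (-0.42, adjusted p = 0.120) and Myh11 (-0.33, adjusted p = 0.306); 3 of the 5 values were negative and the median was -0.02. The summed intensity, most of it from Acta2, was 9268 to 13445 in wild-type and 15267 to 22780 in knockdown hearts. Cnn1, another marker of that list, was detected on 0 arrays. The part of these cells in the results was not tested.

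**Figure D4:**
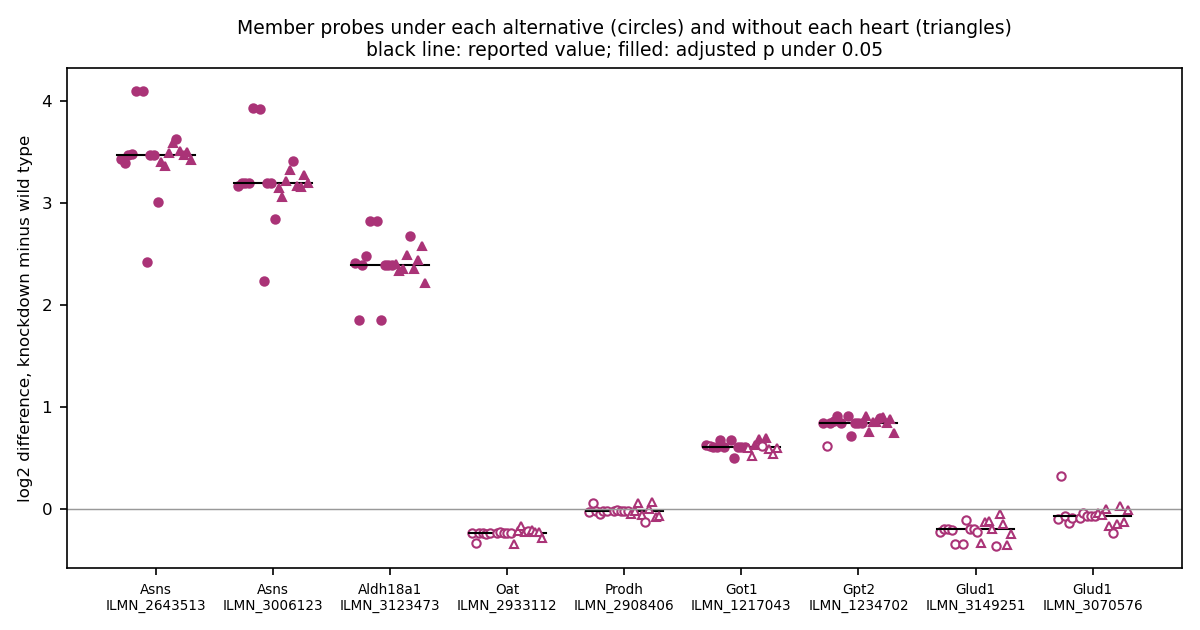
Log2 difference between knockdown and wild-type hearts (vertical axis) of the 9 tested probes under each alternative way of processing (circles) and with each heart left out (triangles), with the reported value as a black line and filled symbols for an adjusted p under 0.05. Asns and Aldh18a1 stay at 1.85 or above, Gpt2 lies between 0.61 and 0.91, Got1 between 0.49 and 0.69, and the other probes lie near 0 with no filled symbol.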

How the data were processed

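Total RNA of 8 hearts was amplified to biotin-labelled RNA and hybridised to Illumina arrays (from the labels' protocols). The main deposited table holds an intensity for each probe (linear, and not normalized between arrays per the file headers) with 28.2% to 31.5% of an array's values below 0, and a detection p-value beside each deposited intensity. No source used here names the scanner software, the slides or the background subtraction. A second deposited table holds the same intensity values after quantile normalization (upper quartile 46.8 on each array, rank order kept) and served as an alternative.

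Each sample's description gave its group and number, since 3 knockdown titles carry the same number. Background was corrected by normexp from the detection p-values with an offset of 16, followed by quantile normalization and log2 (neqc, limma 3.58.1, R 4.3.3). Tests were lmFit and eBayes, two-sided, over all 9397 probes detected on 4 or more of 8 arrays, without a block, and were tested on simulated data. A fold is "at least" where a probe was detected in no heart of a group: the other group's mean was set against a floor, taken on each array as the dimmest detected probe or the probe itself, whichever was brighter. Gene symbols are those of the array's GEO annotation, brought up to date through RefSeq (GRCm38.p6) by Entrez ID: 23978 probes had 1 gene, 1719 none and 0 several. Named are all members, pathway genes that passed, pair partners, Taz and the 5 genes most like Asns by 2 measures; Pycrl, Odc1, Gamt and single markers were added after their values were seen. The members, lists, pairs and motifs were chosen with earlier results of these data known. The alternatives were other offsets, scalings, filters and variance priors, array weights, raised undetected values, a replicate block, a Myl7 covariate and omission of hearts.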

Additional observations from a re-analysis of the deposited data

Results flagged for a closer look

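In the knockdown group the Gpt value of heart 4 stood apart from the other 3 hearts of its group. It was 6.47 on the normalized log2 scale against 6.94 for the nearest heart, a gap of 0.893 of the group's range, beyond Dixon's 95% critical value for 4 samples. This was 1 of 34 groups of values examined, and chance alone marks about 5% of such groups. Without knockdown heart 4 the change of Gpt2 against Gpt was 1.18 in place of 1.29.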

How the results depend on the processing

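Asns, Aldh18a1 and the pair differences other than Oat against Glud1 kept their direction and, where tested, their call under every alternative that gave a value. The log2 difference of Asns ran from 2.42 (ILMN_2643513) and 2.23 (ILMN_3006123) with an offset of 50 to 4.10 and 3.93 with the authors' table, and that of Asns against Asrgl1 from 2.56 to 4.52, as the wild-type level of Asns is set by the floor. The count of members that rose, 4, was 3 to 4 without 1 heart, 2 with detection p under 0.01 on all 8 arrays, where Asns and Aldh18a1 were not tested, and 2 with the Myl7 covariate; the count of members that fell was 0 throughout. Without the dimmest array of each group Got1 gave 0.62 (limma adjusted p = 0.0503). Pathway genes that rose, 3, were 4 with an offset of 50, a trended and robust prior, array weights or undetected values raised. They were 2 with all probes tested whatever their detection, 2 to 3 without 1 heart and 1 with Myl7. Pathway genes that fell, 2, were 5 with an offset of 50, 6 with a trended and robust prior, 4 with the stricter detection, 1 without normexp, with 75th percentile scaling, with the authors' table or with probes averaged, 0 with Myl7 or without the dimmest arrays, and 0 to 1 without 1 heart; this count is therefore not stable. Over all probes the calls ranged from 73 to 464 higher and from 26 to 477 lower over the alternatives other than omission of 1 heart, beside 321 and 297. With the Myl7 covariate Glud1 (ILMN_3070576) was 0.32 and Prodh 0.0595, opposite in sign to the reported values. Without 1 heart Glud1 was -0.17 to 0.0286 and Prodh -0.0802 to 0.0642. The pair of Oat and Glud1 was 0.0196 without the dimmest arrays and -0.31 to -0.05 without 1 heart. The pairs of Aldh18a1 (2.28 to 2.66), Got1 (0.78 to 0.90), Gpt2 (1.18 to 1.42) and Asns (3.56 to 3.94) were not tested without 1 heart. The cause of these shifts was not tested except where stated.

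Deviations of mice with the same number correlated at 0.17, 0.01, -0.09 and -0.01. These values show no consistent likeness of mice with the same number, but they cannot exclude that the mice were paired. With the replicate block all 4 members still rose (Got1 limma adjusted p = 0.0421), the pathway counts were 3 higher and 0 lower, and the calls over all probes were 215 higher and 184 lower. A slide block was not run, as the files give no slides. Probes near background have their differences set by the floor or offset.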
